A study of Mus musculus with 64 samples.

Results

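The RNA levels of 41 genes that copy DNA are described here in 4 kinds of blood progenitor sorted from fetal mouse liver. The 41 genes were chosen by name, with earlier results of these data known. They comprise 12 genes of the replicative helicase and its activators, 8 of the DNA polymerases, 6 of the sliding clamp and its loader, 3 of the single-strand binding protein, 3 of nucleotide supply, 4 of origin licensing, 2 of fragment maturation and 3 that serve chromatin behind the fork. All 41 were listed in each of the 4 populations, where the tables list 38924 genes (LSK), 15790 (CMP), 27892 (GMP) and 13050 (MEP), and all 41 passed the filter on low counts in each.

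The study compared C57BL/6 fetuses homozygous for a Smarcd2 mutation (KO, labelled Smarcd2 -/-), heterozygous fetuses (HET) and wild-type fetuses (WT), and no other allele or treatment is labelled. The Smarcd2 protein belongs to BAF complexes, which shift nucleosomes using ATP. The labels place the fetuses at 13 to 14 days post coitum, except 1 CMP HET library at 14.5 days. LSK cells, the earliest of the 4 and sorted as Sca-1 and c-Kit positive without lineage markers, gave 9 KO, 9 HET and 5 WT libraries. Common myeloid progenitors (CMP) gave 4 KO, 7 HET and 3 WT libraries. Granulocyte-monocyte progenitors (GMP) gave 3 KO, 7 HET and 3 WT libraries, and megakaryocyte-erythroid progenitors (MEP) gave 4 KO, 7 HET and 3 WT. Nothing in the labels says that each library came from its own fetus, and a p-value here speaks of spread among libraries alone. For the last 3 populations the gate labels name CD177, whereas the staining protocol lists CD117 (c-Kit).

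Before a cell divides, origins are licensed when ORC, CDC6 and CDT1 load the MCM2-7 ring onto DNA. In S phase CDC45 and GINS join the ring to form the active helicase, DNA polymerase alpha-primase starts each strand, and polymerases delta and epsilon extend it on the PCNA clamp that the RFC complex loads. Ribonucleotide reductase and thymidylate synthase supply the nucleotides, and E2F factors raise many of these genes as cells leave G1. The fetal liver is the main site of blood formation before birth, and its progenitors divide actively.

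The data are read counts per gene from Smart-seq2, a full-length cDNA method without strand or molecule tags. LSK libraries held 4327582 to 24069833 gene reads (median 7121219) and CMP libraries 1577073 to 8092644 (median 3984674). GMP libraries held 1006090 to 6300070 (median 3309170) and MEP libraries 1488328 to 5646315 (median 2963410). The summed level of 9 stem and multipotent progenitor genes was 2484 to 3206 CPM (read counts relative to library size, scaled by TMM within a population) over LSK libraries, while CMP libraries had 706 to 1455, GMP libraries 243 to 890.1 and MEP libraries 134 to 421. The sum of 9 granulocyte-monocyte genes was 927 to 48389 CPM over GMP libraries, with a HET library at the low end, and that of 10 erythroid and megakaryocyte genes was 1506 to 4939 CPM over MEP libraries. Hepatocyte and globin genes had reads in all 4 populations.

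Smarcd2 itself was near 0 in all libraries labelled KO. Its level in LSK was 0.845 to 1.94 CPM in KO (median 1.13), 21.9 to 67.4 in HET (median 31.9), and 56.4, 70.4, 53.1, 50.4 and 49.4 in the WT libraries. In CMP the KO libraries had 0.606, 1.34, 0.753 and 1.47 CPM, against 91.2, 122 and 132 CPM in WT. In GMP the KO libraries had 0, 1.06 and 0.752 CPM, against 84.8, 90.6 and 88.1 CPM in WT, and in MEP the KO libraries had 1.47, 1.79, 1.13 and 0.355 CPM, against 84.0, 130.3 and 115 CPM in WT. In all 4 populations the KO and WT libraries did not overlap.

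Many replication genes share promoter words bound by E2F and by the trimeric factor NF-Y, so the start regions of the members were searched. RefSeq (GRCm38.p6) gave a window from 250 bases before to 50 bases after the start for 34 of the 41 members; Gins1, Gins2, Gins4, Mcm4, Pole, Prim2 and Rfc2 had none. A gene with several windows was counted if any of them held the word. An E2F word, meaning TTTCCCGC, TTTGGCGC, TTTCGCGC or TTTGCCGC on either strand, was found for 14 of 34 members (41.2%). Among all genes it was found for 704 of 27025 (2.61%). CCAAT on either strand was in 23 of 34 (67.6%), against 41.1% of all genes. TTTGAA, the core of the CHR element found at mitotic genes, was in 5 of 34 (14.7%), against 20.2%. Taking the window of highest GC content for each gene, the median was 62.2% for members and 53.3% for all genes. The members were gathered for their role, and E2F control is part of how such genes are commonly listed, so these shares are descriptions.

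The 100 bases before the RefSeq start are shown for 4 members that were lower in LSK KO cells and had a word there, and for Mcm6 and Orc1, which stand far apart in level. They run 5′ to 3′ along the gene, with matches to an E2F word or to CCAAT in capitals. They lie at chr12:24708154-24708253 (plus strand) for Rrm2, chr2:132253181-132253280 (minus) for Pcna, chr8:85299532-85299631 (plus) for Orc6, chr5:151651209-151651308 (minus) for Rfc3, chr1:128359706-128359805 (minus) for Mcm6 and chr4:108579354-108579453 (plus) for Orc1.
Rrm2: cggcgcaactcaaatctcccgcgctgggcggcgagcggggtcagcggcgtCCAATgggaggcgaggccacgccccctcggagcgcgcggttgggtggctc
Pcna: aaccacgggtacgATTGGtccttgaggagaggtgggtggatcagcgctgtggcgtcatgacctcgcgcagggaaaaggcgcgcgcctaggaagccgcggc
Orc6: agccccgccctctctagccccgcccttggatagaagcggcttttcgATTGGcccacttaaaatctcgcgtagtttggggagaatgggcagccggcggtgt
Rfc3: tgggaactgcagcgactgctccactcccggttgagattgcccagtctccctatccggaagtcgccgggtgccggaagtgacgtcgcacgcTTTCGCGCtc
Mcm6: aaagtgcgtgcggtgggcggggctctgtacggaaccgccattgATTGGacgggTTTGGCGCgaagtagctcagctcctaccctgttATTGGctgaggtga
Orc1: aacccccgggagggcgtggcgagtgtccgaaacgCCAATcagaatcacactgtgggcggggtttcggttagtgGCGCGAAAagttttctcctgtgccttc
Mcm6 and Orc1 held both kinds of word within these 100 bases, Rrm2, Pcna and Orc6 held CCAAT alone, and Rfc3 held an E2F word alone. Tyms held neither word in the same stretch. Of the 6 members lower in LSK KO than in WT that had a window in RefSeq, 2 held an E2F word and 4 held CCAAT.

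Together the 41 genes took close to 1% of gene reads in most groups. Their share was 0.914 ± 0.0606% in LSK KO (SD, n = 9), 1.01 ± 0.0623% in LSK HET (n = 9) and 0.970 ± 0.0745% in LSK WT (n = 5). In CMP it was 0.844 ± 0.0659% in KO, 0.751 ± 0.230% in HET and 0.813 ± 0.0590% in WT, and in MEP it was 0.875 ± 0.117% in KO, 0.895 ± 0.0787% in HET and 0.957 ± 0.0693% in WT. In GMP it was 0.815 ± 0.186% in KO, 0.721 ± 0.317% in HET and 0.906 ± 0.206% in WT, and the HET libraries there ran from 0.0383% to 0.993%. A lower level in such bulk samples can come from fewer cells that express a gene or from less RNA per cell, which cannot be told apart.

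Levels between genes are compared as RPKM, which divides by library size and by the total exon length of a gene, so an order between genes depends on that length. Among helicase genes Mcm6, a subunit of the MCM ring, was the highest member in LSK WT at 313 ± 24.8 RPKM (SD, n = 5). It also had the highest mean in CMP WT at 203 ± 11.8 RPKM (n = 3), where its range of 191 to 214 RPKM overlapped that of Rrm2 (174 to 199). Mcm4 at 186 ± 28.4, Mcm3 at 171 and Mcm5 at 129 ± 15.5 RPKM also stood among the 5 highest in LSK WT, and Mcm6 stood clear of Mcm4 while neighbours below Mcm6 in that order overlapped between libraries. Gins2, a GINS subunit, had the lowest mean of the helicase genes in LSK WT at 12.8 ± 2.53 RPKM. Mcm10, which helps fire origins, had the lowest mean in CMP WT at 11.5 RPKM.

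Rrm2, the regulated subunit of ribonucleotide reductase, was the highest of the 3 nucleotide supply genes in all 4 WT groups. It had the highest mean of the 41 in GMP and MEP. Its WT level was 148 ± 16.6 RPKM in LSK (SD, n = 5), 184 ± 12.8 in CMP, 230.1 ± 44.1 in GMP and 256 ± 58.1 in MEP (n = 3 each). Its range overlapped that of Mcm6 in GMP WT (179 to 260 RPKM against 126 to 286) and in MEP WT (198 to 315 against 204 to 236). Tyms, thymidylate synthase, was the lowest of the 3 in all 4, from 24.8 RPKM in LSK to 42.2 in GMP. The order of Rrm2 and Rrm1 depends on total exon length, which is 2771 bases for Rrm2 and 11012 for Rrm1. Before division by length, Rrm1 was above Rrm2 in LSK WT, with 620 to 1058 CPM against 364 to 463 CPM. LSK was set beside the other populations without a test, because its libraries carry other title series than those of CMP, GMP and MEP.

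Among the clamp genes Pcna had the highest mean in LSK (128 ± 3.69 RPKM), CMP (147) and MEP (191 ± 28.9). The loader subunit Rfc4 had the highest mean in GMP (150.0 ± 72.6 RPKM), but Pcna exceeded it in WT 2 (99.6 RPKM for Pcna and 66.4 for Rfc4). Rfc1, the large loader subunit, had the lowest mean of the clamp genes in all 4 WT groups, from 17.4 to 30.7 RPKM. Of the polymerase genes, the primase subunit Prim1 had the highest mean in LSK, CMP and MEP WT (43.7 to 54.2 RPKM). Pold2 of polymerase delta had the highest mean in GMP (57.8 RPKM), but Prim1 exceeded it in WT 2 (26.1 RPKM for Prim1 and 24.7 for Pold2). Pole, the catalytic subunit of polymerase epsilon, had the lowest mean in all 4 (3.73 to 9.78 RPKM). Of the licensing genes Orc6 was highest (43.3 to 70.8 RPKM) and Orc1 lowest (4.25 to 9.48 RPKM) in all 4.

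The single-strand binding genes spanned 41.4 RPKM (Rpa1) to 77.7 RPKM (Rpa2) in LSK WT. Lig1, the ligase that seals Okazaki fragments, had 37.2 to 47.4 RPKM in the WT groups, and Fen1, the nuclease that trims them, had 3.04 to 4.84 RPKM. The Fen1 level is uncertain, because 78.8% of its exon bases lie opposite exons of Gm10143 and the counts carry no strand. The same holds for Gins2, with 67.3% opposite Gse1, Chaf1a, a subunit of chromatin assembly factor 1, with 52.5% opposite Ubxn6, and Rfc2, with 15.1% opposite Lat2. Uhrf1, which maintains DNA methylation behind the fork, had the highest mean of the chromatin genes in all 4 WT groups (28.05 to 74.9 RPKM). In GMP WT that mean rests on WT 2, since Chaf1b exceeded Uhrf1 in WT 5 (28.05 RPKM for Chaf1b and 22.1 for Uhrf1) and WT 12 (36.1 and 19.99).

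**Figure D1:**
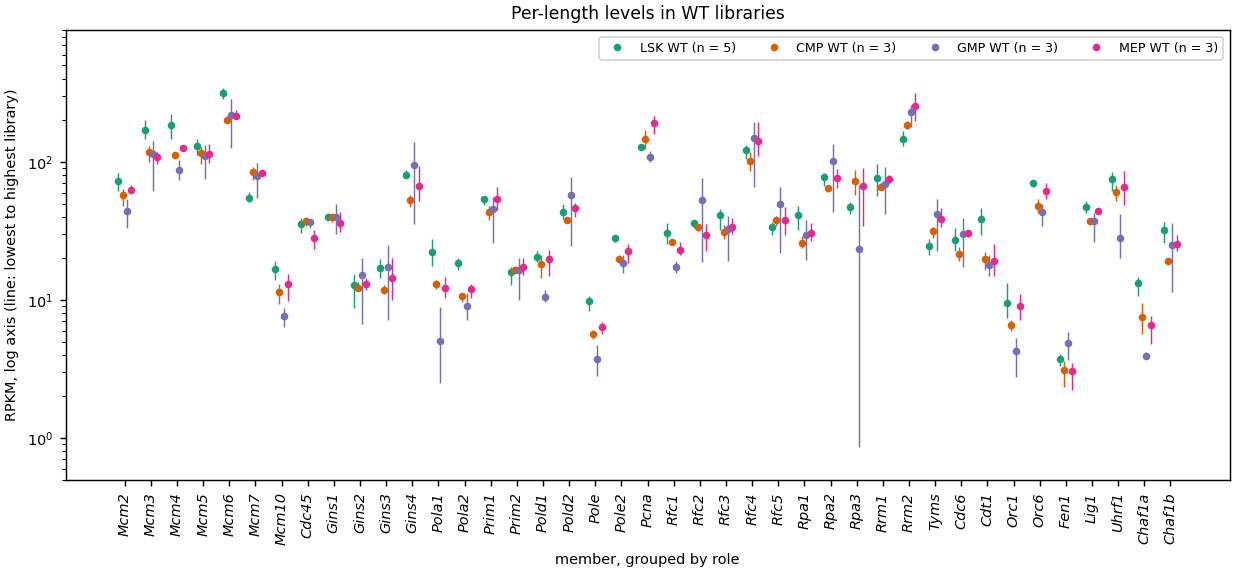
RPKM (log axis) of the 41 members in WT libraries of LSK, CMP, GMP and MEP, grouped by role; points are means and lines run from the lowest to the highest library. Mcm6 and Rrm2 lie at the top, Fen1, Pole and Orc1 at the bottom, and the line of Rpa3 in GMP spans the widest range.

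In LSK cells, 8 members were lower in KO than in WT and 0 were higher. They were Rrm2 and Tyms of nucleotide supply, the clamp Pcna and its loader subunit Rfc3, the origin recognition subunit Orc6, Pole2 of polymerase epsilon, and the GINS subunits Gins1 and Gins4. Log2 fold changes of these 8 ran from -0.55 to -0.18. By edgeR with Benjamini-Hochberg adjustment over all 13878 genes tested, 9.28% of all genes were lower. An unadjusted p under 0.05 was found for 13 of the 41 members and 4454 of the 13878 genes, a similar share. Of the 41 members 36 had a log2 fold change below 0, with a median of -0.14, while the median of all genes was 0.01. The genotypes of 3 members did not overlap, Pcna, Rrm2 and Orc6 (lower in KO), where 4.01% of all genes were lower without overlap.

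Rrm2 (chromosome 12, 24708241 to 24714146, plus strand of GRCm38) had a lowest, median and highest level of 218, 281 and 330.4 CPM in LSK KO, 304, 395 and 459 CPM in HET, and 364, 463, 449.6, 403 and 366 CPM in the WT libraries. All 9 KO libraries lay below all 5 WT libraries, while HET libraries lay across both. The log2 fold change of KO against WT was -0.55 ± 0.10 (SE; edgeR adjusted p 0.000633). Tyms (chromosome 5, 30058202 to 30073617, minus strand) had 101, 113 and 133 CPM in KO, 110.0, 150.1 and 181 CPM in HET, and 133, 129, 169.6, 162 and 162 CPM in WT. The highest KO libraries overlapped the 2 lowest WT libraries, and the log2 fold change was -0.39 ± 0.10 (adjusted p 0.00533). Rrm1, the catalytic subunit of the same reductase, had a log2 fold change of -0.14 and did not pass (adjusted p 0.318).

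Pcna (chromosome 2, 132249162 to 132253314, minus strand) had a lowest, median and highest level of 210.2, 238 and 279.7 CPM in KO, 219, 265 and 341 CPM in HET, and 311, 299, 302, 320.1 and 301 CPM in WT. The WT libraries lay close together, at 307 ± 8.85 CPM (SD, n = 5), and all KO libraries were below them. The log2 fold change was -0.38 ± 0.08 (SE; edgeR adjusted p 0.0017). Of its loader, Rfc3 had 106, 128 and 138 CPM in KO and 162, 165, 166, 141 and 116 CPM in WT, overlapping at 1 WT library, with a log2 fold change of -0.28 ± 0.08 (adjusted p 0.0208). The other loader subunits did not pass, with -0.32 for Rfc4 (adjusted p 0.0739), -0.14 for Rfc5 and with Rfc2 and Rfc1 close to 0.

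Orc6 (chromosome 8, 85299632 to 85308278, plus strand) had a lowest, median and highest level of 118, 142 and 161 CPM in KO, 139.6, 156 and 197 CPM in HET, and 180.0, 177, 181, 164 and 171 CPM in WT. KO and WT libraries did not overlap, and the log2 fold change was -0.32 ± 0.08 (SE; edgeR adjusted p 0.00421). The other 3 licensing genes were below 0 without passing, from -0.10 for Cdc6 to -0.22 for Cdt1, with -0.17 for Orc1. Gins1 had 41.3, 45.8 and 60.7 CPM in KO and 58.6, 59.6, 61.8, 64.6 and 59.4 CPM in WT, and Gins4 had 90.1, 94.3 and 106 CPM in KO and 108, 118, 104, 109.5 and 104 CPM in WT. Both overlapped at the highest KO libraries, with log2 fold changes of -0.34 ± 0.11 (adjusted p 0.0266) and -0.18 ± 0.06 (adjusted p 0.0376).

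All 12 helicase genes were below 0, and 10 of them did not pass. Among these were the remaining GINS subunits, Gins2 at -0.08 and Gins3 at -0.16, and the MCM ring genes, which ran from -0.22 for Mcm4 (adjusted p 0.0713) to -0.06 for Mcm3 and Mcm6. The polymerase genes were split, with 4 of 8 below 0 and a median of -0.01. Pole2 had 56.7, 66.6 and 75.5 CPM in KO and 82.4, 84.0, 78.5, 81.9 and 75.2 CPM in WT, overlapping at the lowest WT library, and passed at -0.28 ± 0.09 (SE; edgeR adjusted p 0.0229), whereas its partner Pole was at 0.18 (adjusted p 0.133). Pold1, the catalytic subunit of polymerase delta, was at 0.20 (adjusted p 0.327). The 3 single-strand binding genes (median -0.14), both maturation genes and the 3 chromatin genes (median -0.14) were all below 0 and none passed.

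**Figure D2:**
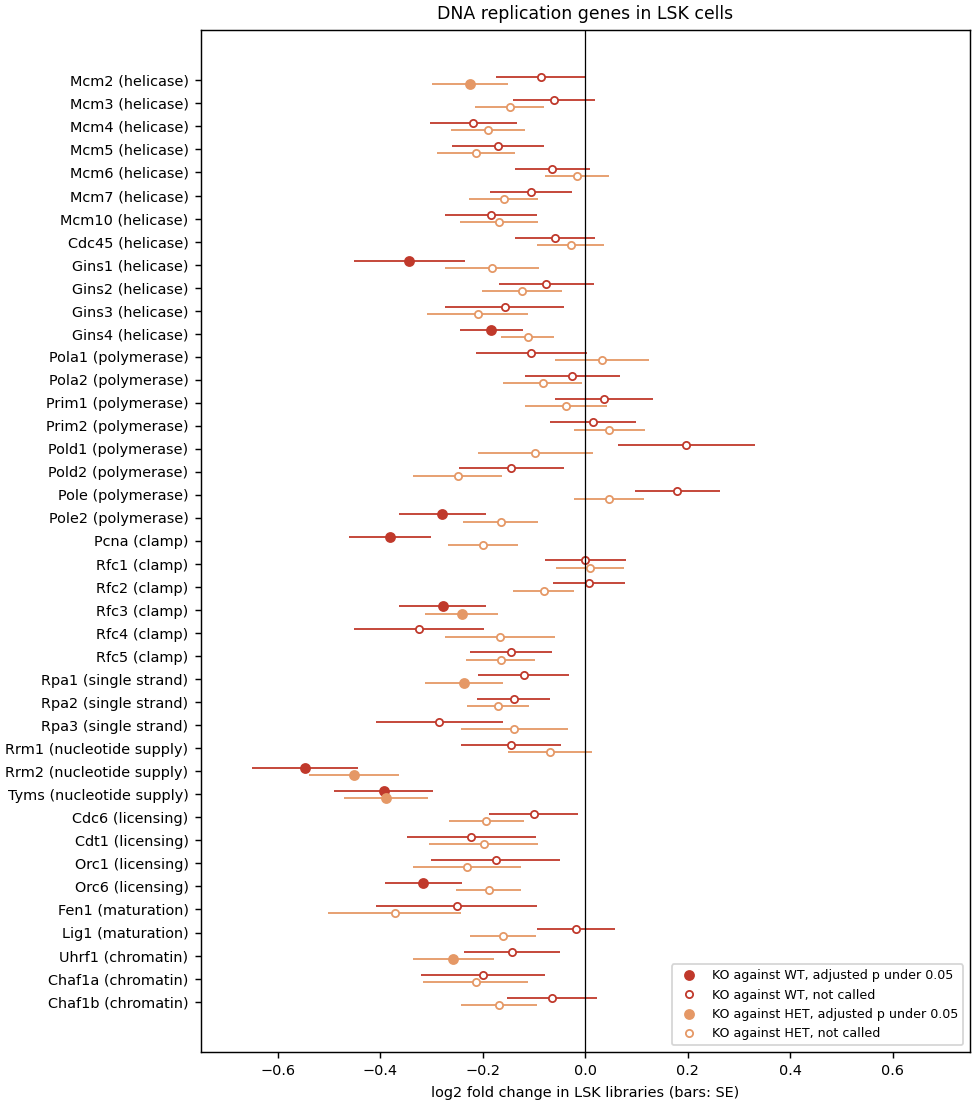
Log2 fold changes (x axis, bars are SE) of the 41 members in LSK, KO against WT above KO against HET for each gene; filled points had an adjusted p under 0.05. Most points lie left of 0, furthest for Rrm2 and Tyms, and Pold1 and Pole lie right of it for KO against WT.

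Against HET, a comparison that shares its KO libraries with the one above, 6 members were lower in LSK KO and 0 higher, where 5.17% of all genes were lower. The log2 fold change was -0.45 ± 0.09 for Rrm2 (SE; adjusted p 0.00149, edgeR) and -0.39 ± 0.08 for Tyms (adjusted p 0.00296). Rfc3 (-0.24, adjusted p 0.0282) was the third of the 3 members called against both. Uhrf1 (-0.26), Rpa1, the large subunit of the single-strand binding protein (-0.24), and Mcm2 of the MCM ring (-0.22) passed against HET with adjusted p of 0.0347, 0.0424 and 0.0484. Rrm2 and Tyms libraries of KO and HET overlapped. Uhrf1 had a lowest, median and highest level of 257, 291 and 315 CPM in KO and 285, 345 and 456 CPM in HET. Of the 41 members 37 were below 0, with a median of -0.17. With the series given in the titles as a block, 12 members passed, a count not set beside the share of all genes in that fit.

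Between HET and WT in LSK, 0 members passed by edgeR, where 0.00721% of all genes passed, and DESeq2 called 0. There, 2 members had an unadjusted p under 0.05, beside 1532 of the 13878 genes tested. The members' median log2 fold change was 0.02. Rrm2, Tyms, Pcna and Orc6 passed for KO against WT in all 14 fits that each left out 1 library, while Gins1 and Rfc3 passed in 11, Pole2 in 10 and Gins4 in 6. For KO against HET, Rrm2 and Tyms passed in all 18 such fits, Rfc3 in 15, Uhrf1 in 10, Rpa1 in 6 and Mcm2 in 5.

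Other measures moved with genotype in LSK. Synthetic spike-in RNA made up 0.781 ± 0.239% of reads in KO, 0.627 ± 0.163% in HET and 0.516 ± 0.139% in WT (SD, n = 9, 9 and 5). A transcript length index was taken from log2 levels less each gene's mean over the libraries of its population, so it is relative within a population. It is the median for genes over 5000 bases minus that for genes under 1500 bases. The index was 0.0726 ± 0.142 in KO, -0.0119 in HET and -0.130 ± 0.101 in WT. With the length index alone as a covariate Pcna (edgeR adjusted p 0.0278) and Rrm2 (0.0116) of the 8 members passed for KO against WT, and Tyms (0.0611) and Orc6 (just above 0.05) were among the 6 that did not. With the spike-in share alone 5 of the 8 passed for KO against WT, and for KO against HET Uhrf1, Mcm2 and Rpa1 did not (adjusted p 0.067, 0.0823 and 0.105). With both as covariates, an alternative chosen after seeing the data, 0 of the 8 members passed for KO against WT by edgeR, with Pcna at -0.28 (adjusted p 0.0636) and Rrm2 at -0.38 (adjusted p 0.0754). In that fit Rrm2 (-0.37, adjusted p 0.0135) and Tyms (-0.34, adjusted p 0.0156) passed for KO against HET, among 7 members. The labels give both sexes in each LSK genotype, with WT 21-5 the only male WT library. With sex as the covariate Gins4 did not pass for KO against WT (edgeR adjusted p 0.0583), and the rest of the 8 members did. The 7 globin genes summed to 113 to 482 CPM in KO and 108 to 1810 CPM in WT, with all 7 below 0 and 0 called. The 8 macrophage genes summed to 25.0 to 1400.5 CPM in KO and 116 to 895 CPM in WT, with all 7 tested below 0 and 0 called, and the 8 hepatocyte genes to 5.01 to 52.1 CPM in KO and 10.1 to 12.3 CPM in WT, where Ttr was at 0. Among the stem genes, Meis1 (0.28) and Kit (0.33) were higher in KO than in WT. Their part in the result was not tested.

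Genes of 3 related lists, also chosen with earlier results of these data known, were read beside the members in LSK KO against WT. Of 39 other replication genes 14 were lower and 2 higher, with a median of -0.18, where 1288 of the 13878 genes tested were lower and 1322 higher. Orc2, another origin recognition subunit, was lower (log2 fold change -0.51; edgeR adjusted p 2.39e-05), with KO at 103 to 136 CPM and WT at 155 to 181 CPM, which did not overlap. Donson, a replisome factor (-0.54), and Dut, which removes dUTP (-0.56), were also lower, and Pold4, the small subunit of polymerase delta, was higher (0.83), with 6.89 to 13.3 CPM in KO and 4.82 to 7.67 CPM in WT.

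Of 22 genes that control S phase entry 5 were lower and 1 higher in LSK KO against WT. Ccne1 (-0.62), Ccne2 (-0.46) and Ccnd1 (-0.53), which encode cyclins of G1 and S phase, were lower. Cdkn1a, the inhibitor p21 that blocks cyclin-dependent kinases and binds PCNA, was higher (1.35, edgeR adjusted p 0.00168), with 5.38 to 11.9 CPM in KO, 2.92 to 9.62 in HET and 1.42 to 5.03 in WT. KO and WT libraries of Cdkn1a did not overlap. Of 25 mitosis genes 3 were lower, Ccnb2 (-0.37), Mad2l1 (-0.39) and Ccna2 (-0.64), a share near that of all genes, and 24 of 25 were below 0 (median -0.29). Against HET 0 of the 25 passed and 9 were below 0 (median 0.10), while the other replication genes had 8 lower and 1 higher, among them Mcmbp (-0.25), Slbp (-0.25), Dctpp1 (-0.37) and Rnaseh2b (-0.28). Of the 13878 genes tested 718 were lower and 823 higher against HET.

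In CMP cells, Rrm2 was the member that passed for KO against WT, lower in KO, where 0.823% of all genes were lower. Its level was 266, 304, 249 and 272 CPM in KO, against 550.4, 483 and 498 CPM in WT, and 212, 394 and 489 CPM (lowest, median and highest) in HET. All 4 KO libraries lay below all 3 WT libraries and below 6 of the 7 HET libraries, the exception being HET library 8. The log2 fold change was -0.90 ± 0.20 (SE; edgeR adjusted p 0.0229). Without WT 2, WT 5, WT 12, KO 13 or KO 15 the adjusted p was 0.0601 to 0.15, while the log2 fold change stayed between -0.94 and -0.84. The call was also lost with the series given in the titles as a block (-0.80, edgeR adjusted p 0.24). KO 13 and KO 15 belong to a title series that holds no WT or HET library, in CMP as in GMP and MEP. Genotype and series are therefore partly confounded in these 3 populations.

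In all, 7 libraries stood apart, a set chosen after seeing the data: CMP HET 8, GMP KO 6, GMP KO 15, GMP HET 7, GMP HET 8, MEP KO 15 and MEP HET 8. CMP HET 8 had the fewest reads among the CMP libraries with the most genes at 5 reads or more, and the other 6 had a length index beyond 1 in size. Without them, Rrm2 was lower in CMP KO than in WT at -0.91 ± 0.12 (SE; edgeR adjusted p 9.59e-05) and than in HET at -0.63 ± 0.10 (adjusted p 0.0011), where 1.82% and 1.48% of all genes were lower. With all libraries it was at -0.52 against HET and did not pass (adjusted p 0.14).

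The other 40 members did not pass in CMP, with 24 of 41 below 0 and a median of -0.03. An unadjusted p under 0.05 was found for 6 of the 41, beside 1499 of the 11658 genes tested. Besides Rrm2, KO and WT libraries did not overlap for Tyms, Orc6 and Pola1 (lower in KO), where 7.56% of all genes were lower without overlap, and for Pola2 (higher), where 8.97% were higher. Tyms had 151, 153, 161 and 149 CPM in KO and 205, 170.3 and 203 CPM in WT, a log2 fold change of -0.33 (adjusted p 0.33). Orc6 had 85.1, 105.1, 87.0 and 99.2 CPM in KO and 134, 105.4 and 116 CPM in WT, so its groups are close to touching. Pola1, the catalytic subunit of polymerase alpha, had 105.4, 92.2, 80.9 and 55.7 CPM in KO and 123, 105.9 and 118 CPM in WT.

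The MCM ring genes of CMP had log2 fold changes from -0.11 for Mcm4 to 0.13 for Mcm7, with SEs of 0.24 to 0.31. Against HET 0 members passed by edgeR in CMP, where 2.19% of all genes passed, and DESeq2 called 2. For HET against WT 0 members passed, where 0% of all genes passed, and DESeq2 called 0. In that order 4 and 1 members had an unadjusted p under 0.05, beside 1693 and 296 of the 11658 genes tested.

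Among the related lists in CMP KO against WT, Cdkn1a was higher, with 33.7 to 65.6 CPM in KO, 13.5 to 25.4 in HET and 11.8 to 12.6 in WT (log2 fold change 1.92; edgeR adjusted p 0.000297). Ccne2 was lower, with 37.3 to 47.1 CPM in KO and 71.8 to 112 CPM in WT (-1.15). Neither gene's KO and WT libraries overlapped. None of the 39 other replication genes and none of the 25 mitosis genes passed. Beside these values, the 8 hepatocyte genes summed to 33.6 to 132 CPM in KO and 304 to 779 CPM in WT, with all 8 below 0 and 0 called. The 9 granulocyte-monocyte genes summed to 3185 to 4646 CPM in KO and 4040 to 5386 CPM in WT, with 2 of the 8 tested lower, and spike-ins were 0.242 ± 0.124% of reads in KO and 0.144 ± 0.0749% in WT. Their part in the Rrm2 result was not tested.

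**Figure D3:**
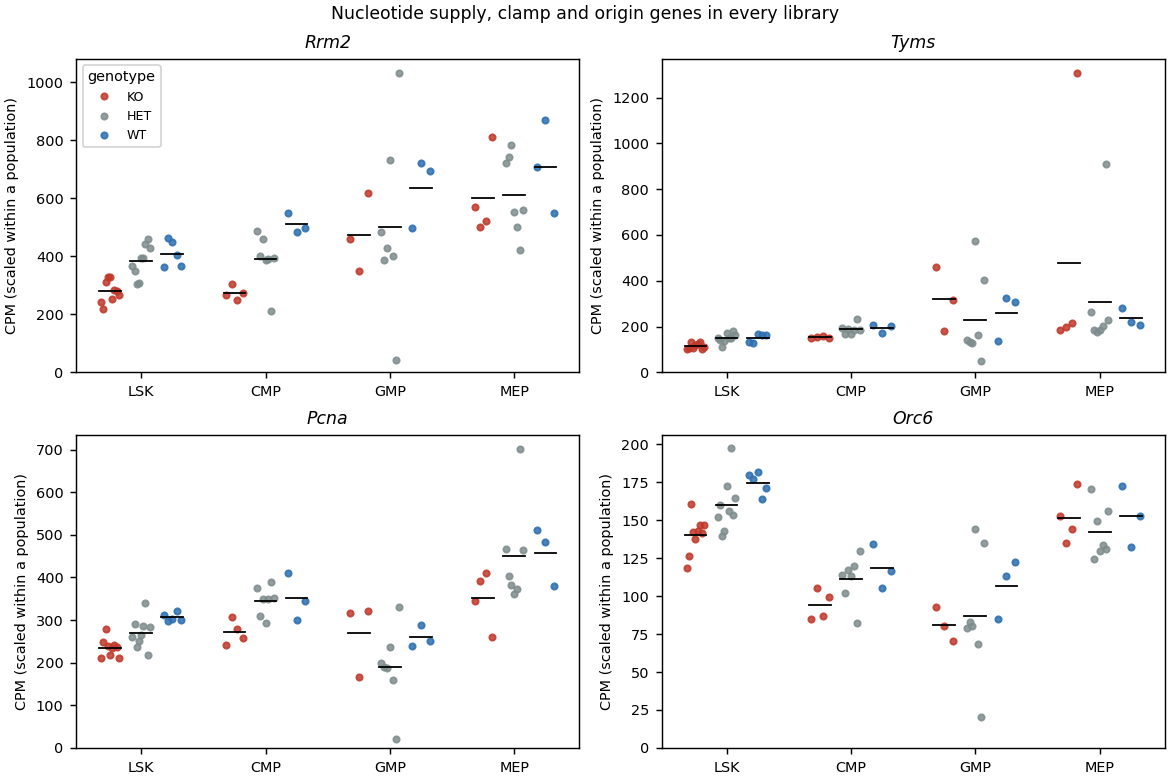
CPM of Rrm2, Tyms, Pcna and Orc6 in every library by population, with KO, HET and WT from left to right; each point is a library and the line is the group mean. KO points of Rrm2 lie below WT points in LSK and CMP, and single GMP and MEP libraries lie far from the rest of their groups.

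In GMP cells edgeR called 0 members for KO against WT (0.204% of all genes passed), KO against HET (0.261%) or HET against WT (0%). In that order 1, 2 and 0 members had an unadjusted p under 0.05, beside 789, 1507 and 61 of the 12239 genes tested. DESeq2 called 0, 1 (Rpa3) and 0 members. The median SE of the members' KO against WT log2 fold changes was 0.67 in GMP, 0.35 in MEP, 0.19 in CMP and 0.09 in LSK, so a change of the size seen in LSK was not detectable in GMP or MEP.

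Rpa3, the small subunit of the single-strand binding protein, was present in some GMP libraries and nearly absent from others. It had 0.791, 3.18 and 3.19 CPM in KO, from 4, 9 and 17 reads, and 77.5, 0.982 and 1.64 CPM in WT, from 96, 4 and 11 reads. In HET the lowest, median and highest were 0.982, 30.2 and 60.7 CPM. High and low libraries occurred within both WT and HET, and all 3 KO libraries were low, overlapping with WT. The log2 fold change of KO against WT was -3.43 ± 1.55 (SE; edgeR adjusted p 0.764). In the other populations Rpa3 had 55.3 to 77.7 CPM in CMP KO and 65.5 to 99.9 CPM in CMP WT, and 42.6 to 73.9 CPM in MEP KO and 39.1 to 103 CPM in MEP WT.

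The length index spread widely in GMP. It was -1.26, 0.263 and -1.36 in KO libraries 6, 13 and 15, -1.45 to 2.20 over HET libraries and -0.218 to 0.528 over WT libraries. Rfc2 was highest in libraries with an index under -1. It was at 702, 476 and 857 CPM in KO and 118, 394 and 483 CPM in WT, and Tyms was at 462, 181 and 317 CPM in KO and 139, 326 and 307 CPM in WT. Spike-ins made up 2.76 ± 0.278% of reads in GMP KO (SD, n = 3), 0.175% in HET and 0.178% in WT, and the KO libraries did not overlap with either group. When the spike-in share was added as a covariate 14 members passed for KO against WT and 10 for KO against HET, but that share separates the genotypes, so genotype and spike-in share cannot be told apart.

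In MEP cells 0 members passed by edgeR for KO against WT, where 0.00856% of all genes passed, for KO against HET, where 0.0171% passed, or for HET against WT, where 0% passed. In all 3 comparisons 0 members had an unadjusted p under 0.05, beside 809, 845 and 89 of the 11686 genes tested. DESeq2 called 0 members. Rrm2 had 571, 501, 522 and 812 CPM in KO and 709, 871 and 549 CPM in WT, which overlapped (log2 fold change -0.24). Orc6 had 153, 135, 144 and 174 CPM in KO and 173, 132 and 153 CPM in WT, with no order between the groups.

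MEP KO library 15 and MEP HET library 8, with length indices of -1.62 and -1.22, stood apart for several members. In KO library 15 Tyms was at 1305 CPM, against 185 to 216 CPM in the other 3 KO libraries, Rfc2 at 1136 against 140.0 to 176, Gins1 at 339.7 against 48.9 to 58.6, and Gins4 at 332 against 68.7 to 82.5. That library alone sets the mean of these members in MEP KO.

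**Figure D4:**
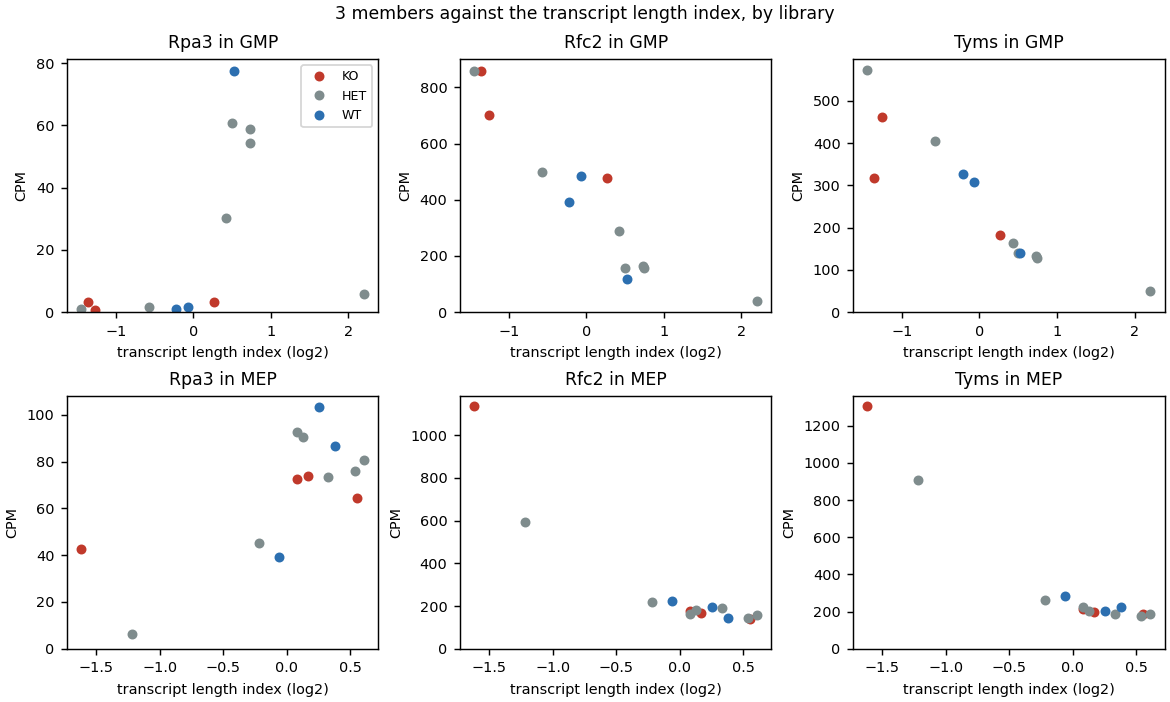
CPM of Rpa3, Rfc2 and Tyms (y axis) against the transcript length index (x axis, log2) in GMP (top) and MEP (bottom), 1 point per library, coloured by genotype. Rfc2 and Tyms are highest in libraries of low index, and Rpa3 is low in all GMP libraries with an index below 0, in 2 above it, and in MEP HET library 8.

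The KO against WT log2 fold change of Rrm2 was -0.55 for LSK, -0.90 for CMP, -0.42 ± 0.77 for GMP and -0.24 ± 0.28 for MEP (SE), and it passed in LSK and CMP. Whether the KO effect differed between CMP, GMP and MEP was tested directly, and 0 members passed by edgeR for MEP minus CMP (0% of all genes passed), GMP minus CMP (0.0169%) or GMP minus MEP (0.414%). At an unadjusted p under 0.05 there were 0, 1 and 1 members, beside 278, 714 and 926 of the 11829 genes tested. DESeq2 called 0 members. The Rrm2 effect differed by 0.63 ± 0.62 between MEP and CMP (SE; adjusted p 1.00), and by 0.50 ± 0.34 without the libraries that stood apart (adjusted p 0.81).

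Cdkn1a was higher in GMP KO than in GMP WT as well, with 60.7 to 99.7 CPM in KO, 10.7 to 22.7 in HET and 11.3 to 15.2 in WT (log2 fold change 2.58; edgeR adjusted p 0.0285). In MEP it had 5.51 to 19.15 CPM in KO, 3.74 to 22.3 in HET and 5.03 to 8.44 in WT and did not pass (0.70). Ccne2 in MEP had 47.2 to 72.1 CPM in KO and 85.6 to 139.6 CPM in WT without passing (-0.87). No gene of the other replication or mitosis lists passed for KO against WT in GMP or MEP.

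Between populations, the members tended to stand higher in MEP than in CMP. Their median log2 fold change was 0.32 in KO (30 of 41 above 0; all genes 0.11), 0.29 in HET (37 of 41; all genes 0.03) and 0.23 in WT (33 of 41; all genes 0.04). By edgeR 0 members passed in KO, HET or WT, where 9.37%, 10.2% and 3.1% of all genes passed. In that order 6, 5 and 0 members had an unadjusted p under 0.05, beside 2708, 2537 and 1089 of the 11829 genes tested. DESeq2 called 3, 1 and 0 members. MEP and CMP libraries did not overlap for 12 members that were higher in MEP WT, where 13.4% of all genes were higher without overlap, and for 7 in KO, where 11.1% were. The 7 in KO were Prim1, Rfc4, Rrm2, Tyms, Cdc6, Orc6 and Lig1.

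On the scale common to CMP, GMP and MEP, Rrm2 had 555, 489, 509 and 731 CPM in MEP KO and 242, 279.9, 229 and 251 CPM in CMP KO. In WT it had 675, 852 and 535 CPM in MEP and 502, 440.1 and 457 CPM in CMP, and in HET 399, 542 and 758 CPM in MEP and 198, 361 and 446 CPM in CMP (lowest, median and highest). MEP and CMP libraries were apart in KO and in WT and overlapped in HET. Orc6 had 148, 132, 141 and 157 CPM in MEP KO and 77.4, 96.7, 79.9 and 91.4 CPM in CMP KO, again without overlap.

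With the libraries that stood apart left out, 5 members were higher in MEP KO than in CMP KO, where 8.09% of all genes were higher: Rrm2 (1.03 ± 0.23 SE; edgeR adjusted p 0.00114), Orc1 (0.77), Orc6 (0.68), Pcna (0.57) and Pole2 (0.54). In HET 3 were higher, Rrm2 (0.66), Cdc6, which loads the MCM ring (0.52), and Orc1 (0.55), where 9.44% of all genes were higher. In WT, where 13% of all genes passed, none did, with 33 of 41 members above 0 and a median of 0.21.

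Between GMP and CMP 5 members passed in KO. Gins4 (1.52 ± 0.52 SE; edgeR adjusted p 0.0418), Cdc6 (1.08 ± 0.31; adjusted p 0.0207) and Chaf1b of chromatin assembly factor 1 (1.19 ± 0.35; adjusted p 0.0207) were higher in GMP, where 7.73% of all genes were higher. Pola1 (-1.41 ± 0.44; adjusted p 0.03) and Rpa3 (-4.42 ± 1.10; adjusted p 0.00794) were lower, where 9.49% were lower. Cdc6 had 206, 167 and 212 CPM in GMP KO and 79.3, 93.6, 91.3 and 105 CPM in CMP KO. Pola1 had 15.6, 31.1 and 39.8 CPM in GMP KO and 95.8, 84.8, 74.4 and 51.3 CPM in CMP KO. These libraries did not overlap for either gene. In GMP WT, however, Pola1 was at 92.4, 36.0 and 24.3 CPM, spanning the KO values. Against MEP KO, Pola1 (-1.73, adjusted p 0.00503) and Rpa3 (-4.49, adjusted p 0.0031) were lower in GMP KO, where 11.1% of all genes were lower, and these comparisons share the GMP libraries. GMP KO libraries 6 and 15 are among those that stood apart. Without the 7 libraries that stood apart, none of the 5 members called between GMP KO and CMP KO passed, with edgeR adjusted p from 0.0532 for Cdc6 to 0.18 for Chaf1b. With the title number as a replicate block Chaf1b (adjusted p 0.0571), Gins4 (0.0755) and Pola1 (0.0567) did not pass either. Gins4 and Pola1 passed in 5 of 12 other fits each, Chaf1b in 7, Cdc6 in 8 and Rpa3 in 11.

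Pcna was lower in GMP HET than in MEP HET, with 25.5, 221 and 365 CPM in GMP and 352, 389.8 and 662 CPM in MEP (lowest, median and highest). The groups overlapped at 1 GMP library, and the log2 fold change was -0.96 ± 0.27 (SE; edgeR adjusted p 0.00914). It was the member that passed there, where 5.94% of all genes were lower, and it passed in 19 of 19 other fits. By edgeR 0 members passed for GMP against CMP in HET, where 5.6% of all genes passed, or in WT, where 1.03% passed. None passed for GMP against MEP in WT, where 6.95% passed. In that order 3, 3 and 1 members had an unadjusted p under 0.05, beside 2295, 1333 and 2171 of the 11829 genes tested. DESeq2 called 0 members in each.

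With the libraries that stood apart left out, 1 GMP KO library remains, which is assumed to vary like the other groups. For GMP against CMP 11 members then passed in WT, 9 higher in GMP (25.2% of all genes passed), 2 in HET, both higher (11.1% of all genes were higher), and 1 in KO, Rpa1, higher (4.23%), fewer than the 5 with all libraries. For GMP against MEP 8 passed in WT, 3 of them higher in GMP (32.4%), 9 in HET, 2 of them higher (35.9%), and 5 in KO, 2 of them higher (24.6%). Pcna (-0.56 in WT, -0.67 in HET and -0.99 in KO) and Orc1 (-0.78, -0.74 and -1.04) were lower in GMP than in MEP. Rfc2 had log2 fold changes above 0 (1.09, 0.79 and 1.78). The KO values rest on GMP KO 13 alone. GMP and MEP libraries overlapped for Rfc2 in HET and in WT, with 139 CPM in GMP WT 2 and 140.6 to 211 CPM in MEP WT. Cdc45, which joins the MCM ring in the active helicase, was higher in GMP than in MEP in WT (0.63, adjusted p 0.000917) and HET (0.48, adjusted p 0.000482). Pold2 (0.94), Cdc6 (0.79), Gins4 (1.19) and Fen1 (1.01) were higher in GMP WT than in CMP WT. Pola1 (-1.13) and Uhrf1 (-0.79) were lower. No WT library was left out, so these are the same WT libraries among which no member passed above. GMP WT 2 lay below all CMP WT libraries for Gins4 (56.2 CPM against 57.7 to 71.0) and Pold2 (55.3 against 64.4 to 67.0). The WT libraries also overlapped for Cdc6 and Uhrf1, but not for Fen1 and Pola1.

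**Figure D5:**
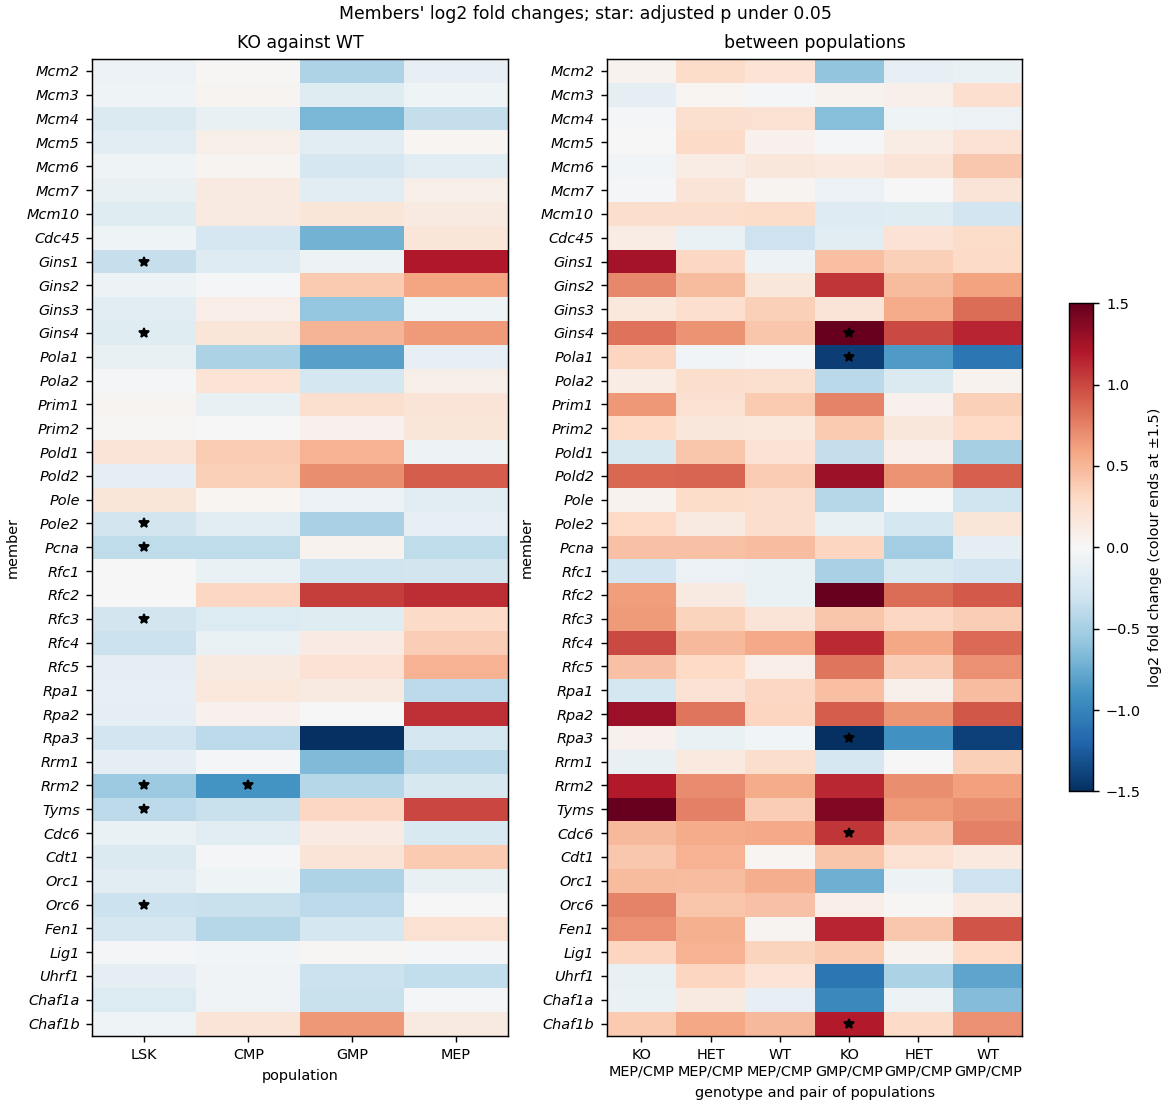
Log2 fold changes of the 41 members for KO against WT in each population (left) and between populations within each genotype (right); red is higher in the first named group, blue lower, colours end at 1.5 in size, and stars mark an adjusted p under 0.05 with all libraries. Rrm2 has stars in LSK and CMP, and Gins4, Rfc2, Pola1 and Rpa3 have strong colours in the KO column of GMP against CMP.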

How the data were processed

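RNA of sorted cells was measured in 64 libraries. The authors deposited read counts per gene, made with featureCounts on GRCm38 (mm10) per the submitters' processing notes; aligner, annotation release and versions were not given in the sources used here. All 41 members and the gene lists were chosen with earlier results of these data known. Within each population, counts were fitted with edgeR 4.0.16 (R 4.3.3; quasi-likelihood, robust, TMM scaling, filterByExpr with a minimum count of 10 and total of 15), with Benjamini-Hochberg adjustment over all genes tested and a threshold of 0.05. CMP, GMP and MEP were also fitted together (11829 genes) for populations and differences of KO effects. CPM and RPKM were computed here, and RPKM uses total exon length. Members named with a test passed it, and others were named as the highest or lowest of a role or as partners in a complex. The 4 genes of smallest p were named from related lists. Alternatives were RLE scaling, no filter, DESeq2 1.42.0, blocks, covariates and left-out libraries. The fit was tested on simulated data. Promoter words were searched with Python 3.11.15. A result on 1 marker gene is not reported here.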

Additional observations from a re-analysis of the deposited data

Results flagged for a closer look

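For 15 of the members, groups of 4 to 10 libraries were screened for a library far from the others, and 17 of 120 were flagged. Chance flags about 1 in 20 such groups if they are independent. Most flags here fell in the same few libraries, so that rate is no measure for them. In MEP KO library 15 Tyms was at 1305 CPM (other KO libraries 185 to 216), Gins1 at 339.7 (48.9 to 58.6), Gins4 at 332 (68.7 to 82.5), Mcm2 at 240.4 (445 to 473) and Pole2 at 26.6 (67.5 to 74.6). In MEP HET library 8 Tyms was at 909 CPM (other HET libraries 177 to 264), Pcna at 701 (360.0 to 466.03), Chaf1b at 237 (91.5 to 147), Gins4 at 226 (66.8 to 105), Rfc3 at 222 (103 to 136) and Gins1 at 175 (46.0 to 56.0).

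In CMP HET library 8 Rrm2 was at 212 CPM (other HET libraries 389 to 489), Mcm2 at 102 (351 to 480) and Tyms at 235 (166 to 194). Single members stood out in other libraries. Rpa1 was at 204 CPM in MEP HET library 1 (others 126 to 157), Uhrf1 at 271 CPM in CMP KO library 6 (others 238 to 239) and Uhrf1 at 456 CPM in LSK HET library 20-4 (others 285 to 370).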

How the results depend on the processing

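For LSK KO against WT, where 8 members passed, the count was 4 with the length index as a covariate (Pcna and Rrm2 of the 8, with Mcm5 and Chaf1a), 5 with the spike-in share (each among the 8) and 0 with both. For LSK KO against HET (6 passed) the counts were 11 by DESeq2, 12 with the title series as a block, 10 with the length index and 3 with the spike-in share. For CMP KO against WT (1 passed) 0 passed with the title series as a block. For CMP KO against HET 2 passed by DESeq2 and 1 with the libraries that stood apart left out. For GMP, 14 passed for KO against WT when the spike-in share was added as a covariate. For KO against HET 1 passed by DESeq2 and 10 with that share. Except where given, the counts in this section stand without the share of all genes in the same fits. They therefore describe the fits and not the members.

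Between populations, DESeq2 called 1 member for HET MEP against CMP, 2 for HET GMP against MEP, 3 for KO MEP against CMP, 8 for KO GMP against CMP and 4 for KO GMP against MEP. Leaving out the libraries that stood apart gave 3, 9, 5, 1 and 5 in the same order, and 11 for WT GMP against CMP, 8 for WT GMP against MEP and 2 for HET GMP against CMP. RLE scaling gave 3 for KO MEP against CMP, and no count filter gave 2 for HET GMP against MEP. For KO GMP against CMP, DESeq2 called 3044 of all genes beside the 8 members. The cause of these shifts in count was not tested.

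With the title number as a replicate block, 2 members passed for HET GMP against MEP and 3 for KO GMP against CMP. Same-numbered libraries deviated together (correlation over 0.1) in 9 of 13 CMP and GMP pairs, 12 of 14 CMP and MEP pairs and 5 of 13 GMP and MEP pairs. By this rule most pairs with CMP deviated together, and most GMP and MEP pairs did not. Median correlations were 0.134 for CMP and GMP, 0.217 for CMP and MEP and -0.0693 for GMP and MEP. Differently numbered libraries were not set beside them, so the rule cannot tell a shared origin from other shared traits. The main tests between populations treated all libraries as independent, so a shared origin, if there was one, is not in their p-values.

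Leaving out 1 library at a time gave 5 to 9 members for LSK KO against WT, 2 to 10 for LSK KO against HET, 0 to 1 for CMP KO against WT, for CMP KO against HET and for KO MEP against CMP, 0 to 2 for HET GMP against CMP, WT GMP against CMP and WT GMP against MEP, 1 to 3 for HET GMP against MEP, 2 to 7 for KO GMP against MEP and 1 to 14 for KO GMP against CMP, with 14 without GMP KO 13. All genes called for KO GMP against CMP ran from 476 to 4169 in these fits, with 4169 without GMP KO 13. Of the called members, 37 of 159 values under other settings and 75 of 290 under left-out libraries lost the threshold, and none changed sign. The median SE of KO against WT was 0.67 in GMP and 0.35 in MEP, and the part of depth in it was not tested.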
